A study of Homo sapiens with 8 samples.

Results

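The interferon-induced proteins with tetratricopeptide repeats (IFIT1, IFIT2, IFIT3 and IFIT5) and the 2'-5'-oligoadenylate synthetase family (OAS1, OAS2, OAS3 and OASL) were described in pancreatic cancer cells given small interfering RNA (siRNA) against the homeobox gene HOXB7. The members were found by the gene name that the array annotation gives to each probe, with controls left out, and every probe was kept apart. This gave 12 of 34127 gene probes and 8 of 27274 gene names, of which 5 probes are for IFIT genes and 7 for the OAS family. The genes were chosen with their siRNA differences in these arrays known, so those differences, and the difference between the cell lines in them, are a description: no p-value is printed for a single member in them, and counts of members past a limma threshold describe the choice of genes and are no independent test.

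MIA PaCa-2 was derived from a primary pancreatic ductal adenocarcinoma and Capan-1 from a hepatic metastasis of such a tumor. In each line, 2 one-color Agilent arrays held RNA of cells given 10 nM HOXB7 siRNA for 48 h and 2 held RNA of parental cells, which makes 8 arrays in all. The siRNA was a Dicer-substrate duplex, a double-stranded RNA that the cell's Dicer cuts, delivered with a cationic lipid. The parental cells carry no transfection in the labels and no array holds cells given a scrambled duplex, so loss of HOXB7 and exposure to the duplex and lipid cannot be told apart. Each cell line lay on its own slide, so line and slide cannot be told apart either, and the siRNA arrays took the first positions of each slide. The labels do not say that duplicates came from separate cultures, and p-values measure the spread between these arrays only.

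The IFIT proteins bind viral RNA: IFIT1 recognizes messenger RNA whose cap lacks 2'-O methylation and blocks its translation, IFIT2 and IFIT3 form complexes with it, and IFIT5 binds RNA with a 5' triphosphate. OAS1, OAS2 and OAS3 are enzymes that, once bound to double-stranded RNA, make 2'-5'-linked oligoadenylates (2-5A), second messengers of the antiviral response. OASL lacks that activity and enhances signaling by the RNA sensor RIG-I. All are induced by interferon through the transcription factor complex ISGF3, and IFIT1, IFIT2, IFIT3 and OASL can also be induced directly by IRF3 after RNA sensing, without interferon.

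The sequence ISGF3 and the IRF factors bind, the interferon-stimulated response element, contains a repeat of GAAA spaced by 2 bases. The letters GAAANNGAAA were searched on both strands in the RefSeq windows of 300 bases around each gene start (250 before and 50 after, GRCh38.p14), without regard to overlap with another motif. They occurred in 3.57% of 35116 windows, and 0.259% held 2 or more matches. Of the 8 member genes, 5 had a window, and 4 of these held a match. IFIT2, OAS2 and OASL were not among the windows. Shown here are the 160 bases before the start of IFIT1 and IFIT3, whose siRNA arrays lay apart from the parental arrays in Capan-1, of IFIT5, their neighbor whose arrays overlapped, and of OAS3. Each is written 5' to 3' on the plus strand, which is the gene's strand, with matches on either strand in capitals.
IFIT1, chr10:89392463-89392622: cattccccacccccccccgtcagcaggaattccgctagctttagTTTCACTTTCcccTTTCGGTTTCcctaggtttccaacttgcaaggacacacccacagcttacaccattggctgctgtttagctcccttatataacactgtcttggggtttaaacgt
IFIT3, chr10:89327837-89327996: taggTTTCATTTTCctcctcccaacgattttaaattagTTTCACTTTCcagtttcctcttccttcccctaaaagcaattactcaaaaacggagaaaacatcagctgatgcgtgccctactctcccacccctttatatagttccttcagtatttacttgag
IFIT3, other start, chr10:89332369-89332528: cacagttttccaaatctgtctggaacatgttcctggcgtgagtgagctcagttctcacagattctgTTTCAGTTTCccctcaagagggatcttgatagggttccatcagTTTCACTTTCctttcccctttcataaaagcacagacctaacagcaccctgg
IFIT5, chr10:89414408-89414567: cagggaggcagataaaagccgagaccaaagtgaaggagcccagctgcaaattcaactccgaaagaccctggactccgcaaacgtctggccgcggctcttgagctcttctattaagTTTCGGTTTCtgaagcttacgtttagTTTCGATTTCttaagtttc
OAS3, chr12:112938314-112938473: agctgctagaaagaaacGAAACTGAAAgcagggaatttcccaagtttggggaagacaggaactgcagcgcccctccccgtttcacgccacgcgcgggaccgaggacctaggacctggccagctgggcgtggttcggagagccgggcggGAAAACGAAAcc

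The matches of IFIT1 began at -116 and -103, counted from the first transcribed base. Those of IFIT3 began at -156 and -122 before its first start and at -94 and -51 before the other. IFIT5 had 3 matches, at -45, -19 and -4, the last running past the start and so only partly shown, and OAS3 had 2, at -143 and -12. The window of OAS1 held no match. Its bases just before the start do hold gaaacgaaa, in which GAAA is repeated with 1 base between, a spacing that the search could not find. The motif was present in IFIT1 and IFIT3, whose arrays lay higher with siRNA in Capan-1, and also in IFIT5, whose arrays overlapped, and in OAS3, whose probes differed by at most 0.14 in size there. Among the other interferon-stimulated genes described further on, 35 of 49 genes with a window held a match. A match describes the letters only.

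The HOXB7 probe stood at -4.82 and -4.09 on the parental MIA PaCa-2 arrays and was not well above background on both siRNA arrays, which makes it at least 2.85-fold lower (limma adjusted p = 0.017). That call was lost in 6 of the 8 fits that left out an array, with limma adjusted p-values up to 0.083, and kept without the siRNA array 2 or the parental array 1 of that line. In Capan-1, HOXB7 stood at -2.48 and -2.34 on the parental arrays and at -5.26 and -4.80 on the siRNA arrays, a log2 difference of -2.62 (SE 0.26) with a limma adjusted p of 0.12. These and all later levels are log2 intensities relative to the 75th percentile of the array's gene probes, so that 0 is that percentile. Between 69.2% and 74.3% of the 43118 gene spots of an array were well above background. Of 8 epithelial markers, all were above background in both groups of Capan-1 and 5 in both groups of MIA PaCa-2, where CDH1, EPCAM and CEACAM6 were not. All 7 leukocyte markers with a probe were above background in every group, and their summed linear level, relative to the same percentile, was 4.73 to 5.18 in siRNA and 4.85 to 5.10 in parental MIA PaCa-2 cells, and 1.79 to 1.87 in siRNA and 1.70 to 1.73 in parental Capan-1 cells. Their part in the results was not tested.

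Of the 12 member probes, 11 were well above background on all 8 arrays, each as a single spot without an outlier flag. The exception was the OAS3 probe A_33_P3402489, above background on 5 of 8 arrays. Levels of different probes cannot be set against each other, since probes differ in how they hybridize, and the comparisons were made within a probe.

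In Capan-1, IFIT1, both probes of IFIT2, IFIT3 and OASL lay higher on the siRNA arrays than on the parental arrays, by 1.76-fold to 2.33-fold, while IFIT5 and the OAS enzymes showed differences of at most 0.20 on the log2 scale. IFIT1 stood at 1.20 and 1.23 on the parental arrays and at 2.39 and 2.48 on the siRNA arrays. The log2 difference was 1.22 (SE 0.086), or 2.33-fold, the largest of the 12 probes. Duplicates lay close together and the groups did not overlap.

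IFIT2, which also takes part in apoptosis, has probes at chr10:91058377-91058436 and chr10:91056593-91056652 of hg18, both on the plus strand and both annotated to its transcript NM_001547. The first read 1.31 on both parental Capan-1 arrays and 2.28 and 2.44 on the siRNA arrays, a log2 difference of 1.05 (SE 0.14). The other read -2.22 and -2.03 on the parental arrays and -1.09 and -1.30 on the siRNA arrays, a difference of 0.93 (SE 0.13), which normexp, another background correction, lowered to 0.58. Both probes thus placed the siRNA arrays above the parental arrays by a similar amount, although they read at different levels.

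IFIT3, which stabilizes IFIT1 on RNA, stood at 0.50 and 0.61 on the parental Capan-1 arrays and at 1.39 and 1.34 on the siRNA arrays. Its log2 difference of 0.81 (SE 0.080) is 1.76-fold, and scaling to the spike-in probes gave 0.53. OASL stood at 1.58 and 1.65 on the parental arrays and at 2.44 and 2.52 on the siRNA arrays, a difference of 0.87 (SE 0.085), or 1.83-fold. In both genes the duplicate arrays of a group lay close together, and the groups were separate.

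IFIT5, encoded beside IFIT1 on chromosome 10, did not share this pattern. It stood at -0.65 and -0.69 on the parental and at -0.60 and -0.76 on the siRNA arrays of Capan-1, and the groups overlapped, with a difference of -0.0095 (SE 0.11). OAS1 stood at -1.46 and -1.52 on the parental and at -1.26 and -1.31 on the siRNA arrays, a difference of 0.20 (SE 0.11) without overlap. The 3 probes of OAS2 overlapped between the groups, with differences of 0.039, 0.034 and -0.054. The OAS3 probe A_24_P335305 differed by -0.14 (SE 0.10) and A_33_P3402489 by 0.079 (SE 0.53).

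**Figure D1:**
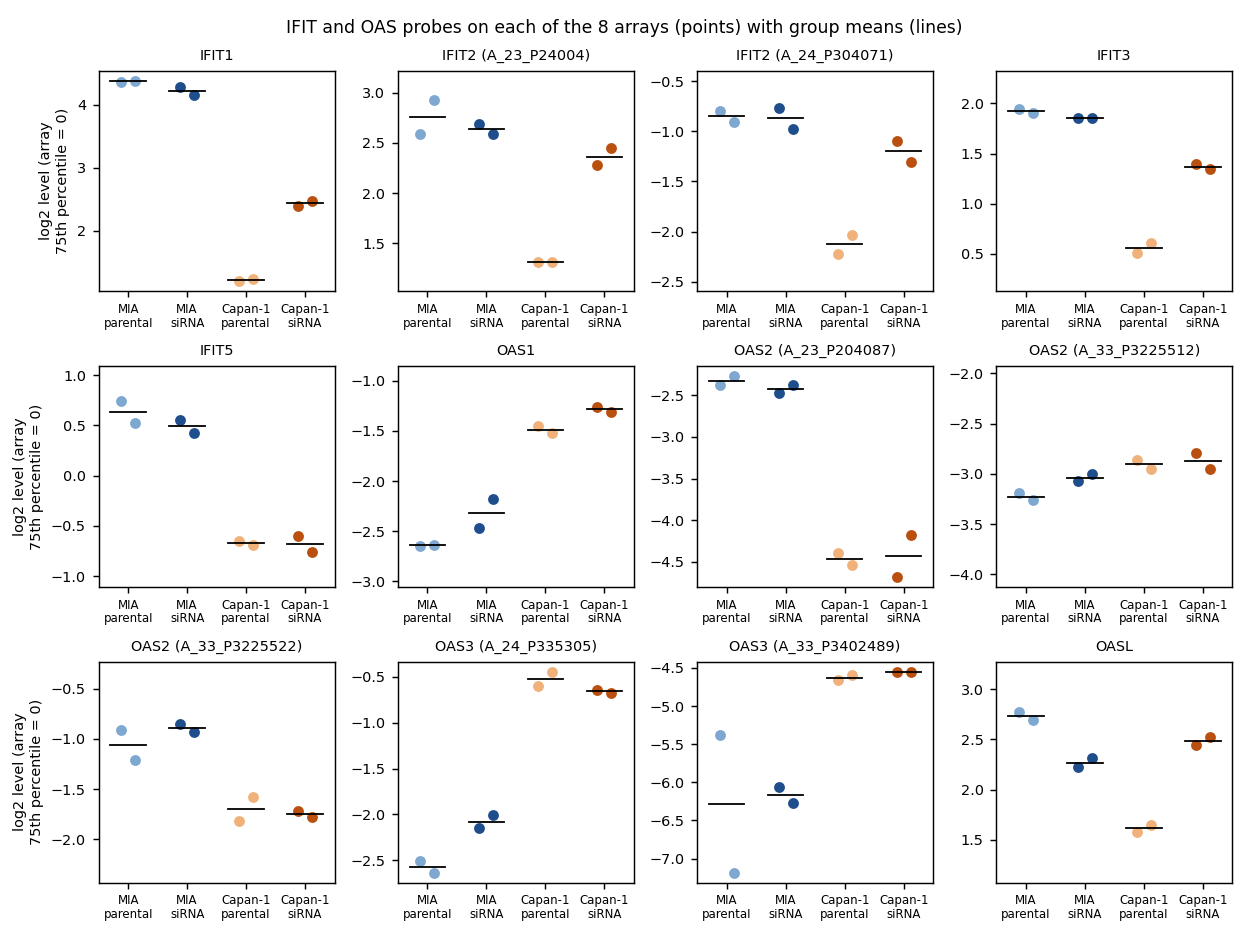
Level of each of the 12 probes on the 8 arrays, as log2 intensity with the array's 75th percentile at 0 (vertical axis, its range set for each panel), in the 4 groups of cells (horizontal axis); points are arrays and lines are means of 2 arrays. In the panels of IFIT1, IFIT2, IFIT3 and OASL the parental Capan-1 arrays lie lowest, at 1.20 and 1.23 for IFIT1, while in those of OAS1 and OAS3 both Capan-1 groups lie above both MIA PaCa-2 groups.

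Counted against all probes, 0 of 12 member probes in Capan-1 passed an adjusted p of 0.05 in limma, where 0.00428% of 23376 tested probes (1 probe) did. At an unadjusted p under 0.05 the count was 5 of 12 (IFIT1, both probes of IFIT2, IFIT3 and OASL, all higher), against 5.85% of all tested probes that were higher at that level. The same 5 probes passed in limma when the spread was allowed to follow intensity (0.227% of all probes) and with the normexp background correction (0.347%), and IFIT1 alone passed with quantile normalization (0.0556%) or when only probes above background on all 8 arrays were tested (0.0246%). They also passed when both duplicate ratios had to lie outside the interval holding 99% of the ratios of the parental arrays. By that rule 1.12% of 23343 probes were called higher. The study used an interval of this kind but, among other criteria, also required more than 1 probe per gene, all in the same direction. IFIT1, IFIT3 and OASL had 1 probe each and could not meet that. The siRNA arrays lay above the parental arrays without overlap for 7 of 12 member probes, against 27.1% of all probes, and below them for 1, against 27.1%. The median difference of the member probes was 0.14 and that of all probes -0.00090. Since the genes were chosen on this contrast, these counts describe the choice.

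In MIA PaCa-2 the IFIT genes differed little between siRNA and parental cells. The largest differences of the tested probes were in OASL, OAS3 and OAS1. At an unadjusted p under 0.05 in limma and by overlap, the member counts given below lay near the shares of all probes. IFIT1 stood at 4.36 and 4.38 on the parental and at 4.29 and 4.16 on the siRNA arrays, a log2 difference of -0.15 (SE 0.086) without overlap. IFIT3 stood at 1.95 and 1.91 on the parental arrays and at 1.86 on both siRNA arrays, a difference of -0.070 (SE 0.080). Both groups of each gene lay within a narrow range. IFIT2 differed by -0.12 (SE 0.14) and -0.020 (SE 0.13) at its probes and IFIT5 by -0.14 (SE 0.11), and the groups overlapped for all of these.

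OASL stood at 2.77 and 2.70 on the parental MIA PaCa-2 arrays and at 2.23 and 2.31 on the siRNA arrays, a log2 difference of -0.46 (SE 0.085), or 1.38-fold lower. The OAS3 probe A_24_P335305 went the other way, from -2.51 and -2.63 on the parental arrays to -2.15 and -2.01 on the siRNA arrays, a difference of 0.50 (SE 0.10), or 1.41-fold higher. OAS1 stood at -2.65 and -2.63 on the parental and at -2.46 and -2.18 on the siRNA arrays, a difference of 0.32 (SE 0.11). Without scaling between arrays the differences of OAS3 and OAS1 were 0.28 and 0.10. The arrays of these genes did not overlap between groups, and OASL was on the opposite side of the parental arrays from the synthetases OAS1 and OAS3.

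The OAS2 probes differed by -0.097, 0.19 and 0.17 in MIA PaCa-2, and only for the probe at 0.19 did the arrays not overlap. The OAS3 probe A_33_P3402489 was not tested there, being above background on only 1 of the 4 MIA PaCa-2 arrays. Of 11 member probes tested, 0 passed an adjusted p of 0.05 in limma, against 1.92% of 23715 probes. At an unadjusted p under 0.05, 2 were higher (OAS1 and OAS3, against 10.6% of all probes) and 1 was lower (OASL, against 9.87%). OAS3 and OASL passed when the spread followed intensity (5.38% of all probes), with normexp (4.20%) and among probes above background on all arrays (4.90%). By the interval of the parental arrays 0 were called, against 0.292% of 23653 probes called higher and 0.249% called lower. The siRNA arrays lay above the parental arrays for 3 of 11 member probes (28.0% of all probes) and below for 3 (23.4%). The median difference was -0.070, and that of all probes 0.022.

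**Figure D2:**
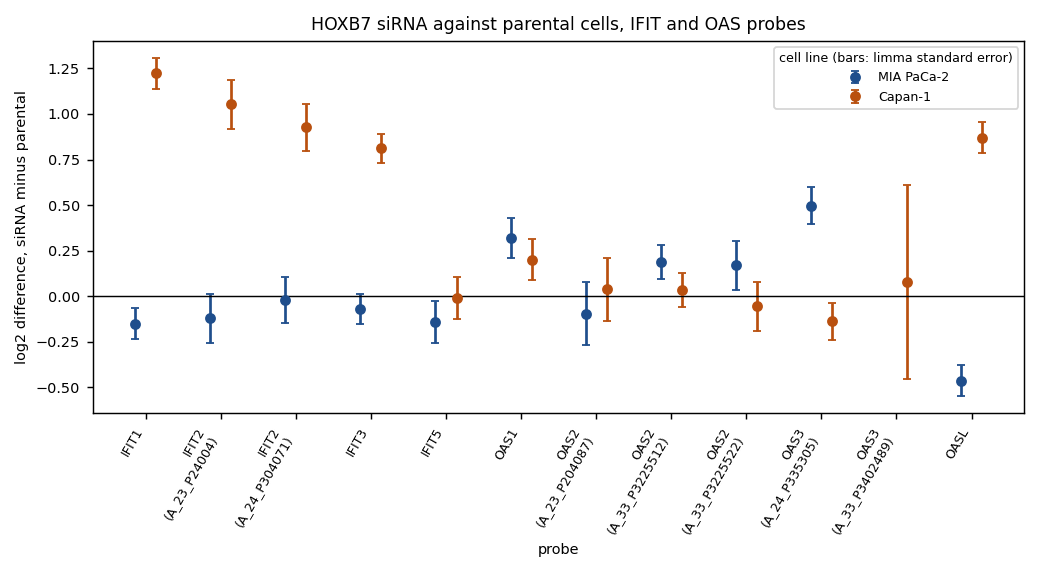
Log2 difference between siRNA and parental cells (vertical axis) for each probe (horizontal axis) in MIA PaCa-2 and Capan-1, with the limma standard error as bars and 2 arrays per group; the OAS3 probe A_33_P3402489 has no MIA PaCa-2 value. IFIT1, IFIT2, IFIT3 and OASL lie between 0.81 and 1.22 for Capan-1 and between -0.46 and -0.020 for MIA PaCa-2, and IFIT5 and the OAS enzymes lie near 0 in Capan-1.

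Subtracting the Capan-1 difference from the MIA PaCa-2 difference gave -1.37 (SE 0.12) for IFIT1, -1.17 (SE 0.19) and -0.95 (SE 0.18, and -0.56 with normexp) for IFIT2, -0.88 (SE 0.11) for IFIT3 and -1.33 (SE 0.12) for OASL. For OAS3 at A_24_P335305 it was 0.63 (SE 0.14), and for the other probes it lay between -0.14 and 0.22. That range includes the OAS3 probe A_33_P3402489 at 0.037 (SE 0.75), which was mostly not above background in MIA PaCa-2. Leaving out a parental MIA PaCa-2 array moved its value to -0.86 or 0.94, so it is not a sign of little difference. The siRNA arrays of IFIT1, IFIT3 and OASL lay below the parental arrays in MIA PaCa-2 and above them in Capan-1, and for OAS3 at A_24_P335305 it was the reverse. Of these, OASL had the largest distance below the parental arrays in MIA PaCa-2. For the difference between lines, 0 of 12 member probes passed an adjusted p of 0.05 in limma (0.00783% of 25552 probes did), and at an unadjusted p under 0.05 there were 1 above 0 (6.19% of all probes) and 5 below 0 (4.88%), which again describes the choice. With the spread following intensity the count was 3 (IFIT1, IFIT3 and OASL, against 0.168% of all probes), with normexp 4 (0.200%, the same with an IFIT2 probe) and among probes above background on all arrays 2 (0.0296%, IFIT1 and OASL).

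The parental cells of the lines, each line on its own slide, were called different at every member probe. The OAS2 probes gave no single direction, and some settings lost calls at OAS2 and OAS3 probes. This comparison between parental cells is no siRNA contrast and was tested. Its arrays also enter the siRNA differences, and the genes were chosen with earlier results of these data known. Its p-values and counts are therefore no independent test of the members. In limma, 12 of 12 member probes passed an adjusted p of 0.05, where 70.2% of 24965 tested probes did. Of these, 8 were higher in MIA PaCa-2 (39.2% of all probes) and 4 were higher in Capan-1 (31.0%). The 4 lie near the share of all probes. They include the OAS3 probe A_33_P3402489, which entered the test only through Capan-1, where both parental arrays were above background. The median difference of the member probes was 1.20 and that of all probes 0.11.

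All 5 IFIT probes and OASL were higher in parental MIA PaCa-2 cells. IFIT1 was 8.91-fold higher, a log2 difference of 3.16 (SE 0.086, limma adjusted p = 1.22e-06). The other IFIT probes were 2.42-fold to 2.73-fold higher: IFIT2 by 1.45 and 1.27, IFIT3 by 1.37 and IFIT5 by 1.31 on the log2 scale, with limma adjusted p-values of 0.000223 or less, and normexp gave 0.80 in place of 1.27 for IFIT2. IFIT5 was at 0.74 and 0.52 in parental MIA PaCa-2 and so differed between the lines much as IFIT2 and IFIT3 did, although it did not separate by siRNA in Capan-1. OASL was higher by 1.12 (SE 0.085, limma adjusted p = 6.66e-05), or 2.17-fold.

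OAS1 and OAS3 were higher in parental Capan-1 cells. OAS1 differed by -1.15 (SE 0.11, limma adjusted p = 0.000199), which is 2.22-fold higher in Capan-1. OAS3 was at -2.51 and -2.63 in MIA PaCa-2 and at -0.60 and -0.44 in Capan-1 at the probe A_24_P335305, a difference of -2.05 (SE 0.10, limma adjusted p = 1.11e-05), or 4.15-fold higher in Capan-1. Its other probe, A_33_P3402489, stood at -5.38 and -7.18 in MIA PaCa-2, the latter not above background, and at -4.66 and -4.60 in Capan-1. It gave -1.65 (SE 0.53, limma adjusted p = 0.031), in the same direction with a wide spread in MIA PaCa-2. Without the parental MIA PaCa-2 array 2 this difference was -0.75 and without array 1 it was -2.55, both called. Without any of the other 6 arrays it was not called (limma adjusted p between 0.050 and 0.10), nor with the parental groups fitted alone (0.077) or the replicate block (0.12), and normexp gave -0.18 for this probe and -0.58 for OAS1.

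The 3 probes of OAS2 did not give the same direction. The probe A_23_P204087 (chr12:111932984-111933043, hg18, annotated to NM_016817) was higher in MIA PaCa-2 by 2.14 (SE 0.17, limma adjusted p = 8.97e-05). The probe A_33_P3225512 (chr12:111932812-111932871), which lies next to it and is annotated to NM_002535 and NM_016817, was lower there by a log2 difference of -0.32 (SE 0.094, limma adjusted p = 0.023). The third, A_33_P3225522 (chr12:111910933-111910992), is annotated to NM_001032731, a different transcript, and was higher in MIA PaCa-2 by 0.64 (SE 0.13, limma adjusted p = 0.0060). The call of A_33_P3225512 was lost without the parental array 1 (limma adjusted p = 0.12) or 2 (0.055) of Capan-1 or the parental array 2 of MIA PaCa-2 (0.081). It was also lost with the spread following intensity (0.061), no scaling (0.23), spike-in scaling (0.064), quantile normalization (0.079), normexp (0.13, at -0.17) and the replicate block (0.055), while its sign stayed the same. Spike-in scaling lost the call of A_33_P3225522 as well (0.069), and normexp gave 0.74 for A_23_P204087. No single direction is given for OAS2.

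**Figure D3:**
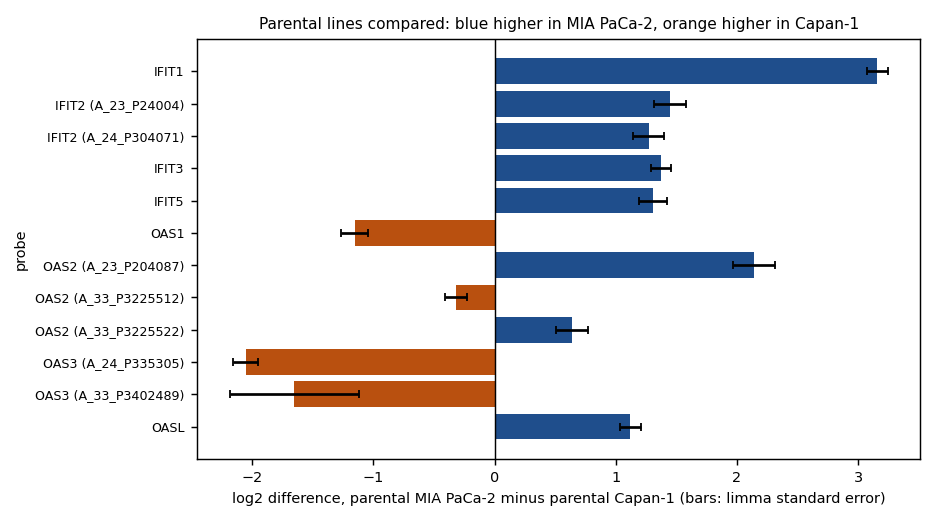
Log2 difference between parental MIA PaCa-2 and parental Capan-1 cells (horizontal axis) for each of the 12 probes (vertical axis), 2 arrays per line, with the limma standard error as bars. All 5 IFIT probes and OASL are higher in MIA PaCa-2, from 1.12 to 3.16, OAS1 and OAS3 are higher in Capan-1, and the OAS2 probes lie on both sides of 0.

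Ordered by level, IFIT1 and IFIT3 ran from parental MIA PaCa-2 over siRNA MIA PaCa-2 and siRNA Capan-1 to parental Capan-1, with no overlap between neighboring groups. Both IFIT2 probes had the same order, with the MIA PaCa-2 groups overlapping each other. The siRNA arrays of Capan-1 thus lay between the parental Capan-1 arrays and both MIA PaCa-2 groups for these 3 genes, at a distance from the siRNA MIA PaCa-2 mean of 1.78 for IFIT1, 0.27 and 0.33 for IFIT2 and 0.49 for IFIT3. OASL had another order, with parental MIA PaCa-2 highest, siRNA Capan-1 next, then siRNA MIA PaCa-2 and parental Capan-1 lowest, all without overlap. For OAS1 and OAS3 at A_24_P335305 both Capan-1 groups lay above both MIA PaCa-2 groups, with no overlap between neighbors, and for IFIT5 and OAS2 at A_23_P204087 each line's own groups overlapped.

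The mean of the 8 genes (the brightest probe of each, centered over the arrays) was between 0.22 and 0.26 on the MIA PaCa-2 arrays, 0.0074 and 0.0033 on the siRNA arrays of Capan-1 and -0.52 and -0.46 on its parental arrays. IFIT3 was closest to this mean over the 8 arrays (Pearson r = 0.996), followed by IFIT2 (0.970) and IFIT1 (0.955), while OAS1 (-0.706) and OAS3 (-0.817) ran against it. Each of these genes enters the mean, so part of its r is built in. Among 20280 other probes above background on all arrays, the 5 genes most like the mean were PPP2R1B (0.988), IRF2BP1 (0.986), DDX58 (0.983), SEC23A (0.980) and PSMD8 (0.973). The 8 arrays fall into 4 groups on 2 slides, so these values describe how group means are ordered. DDX58 is the older name of RIG-I, the sensor whose signaling OASL enhances.

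The genes that act before IFIT and OAS were examined from the ligand onward. Of 17 interferon genes with a probe, 4 were well above background on both arrays of a group. IL29, now called IFNL1 and encoding the type III interferon lambda 1, stood at -3.21 and -3.14 on the parental and at -2.14 and -2.26 on the siRNA arrays of Capan-1, a log2 difference of 0.98 (SE 0.12, limma adjusted p = 0.14), and differed by 0.042 in MIA PaCa-2. Its arrays in Capan-1 did not overlap, as for IFIT1 and OASL. IL28A, another type III interferon, differed by 0.33 in Capan-1 (limma adjusted p = 0.33) and by 0.18 in MIA PaCa-2 (limma adjusted p = 0.38). IFNB1, encoding interferon beta, was above background on both arrays of parental Capan-1 and on neither siRNA array, at least 1.99-fold lower there with a limma adjusted p of 0.36. IFNA4 differed by -0.25 and its groups overlapped.

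Of the 17 genes for interferon receptors and ISGF3 signaling, all were tested and 0 passed in limma in either siRNA comparison. At an unadjusted p under 0.05 there were 2 higher in Capan-1, 1 higher in MIA PaCa-2 and 0 lower. For this and the later lists, the shares over all tested probes at that level were 5.85% higher and 6.60% lower in Capan-1, and 10.6% higher and 9.87% lower in MIA PaCa-2. IRF9, the DNA-binding subunit of ISGF3, stood at -1.63 and -1.21 on the parental and at -0.81 and -0.63 on the siRNA arrays of Capan-1, 0.70 higher with a limma adjusted p of 0.24, and differed by 0.23 in the other line. STAT2, which belongs to the same complex, differed by 0.049 in Capan-1, with overlapping arrays. IFNAR1, a subunit of the type I interferon receptor, differed by -0.098 there, and IL10RB, a subunit of the type III receptor, by 0.15. The list median was 0.064 in Capan-1 and 0.061 in MIA PaCa-2. Between the parental lines IRF9 (0.72) and STAT2 (0.62) were higher in MIA PaCa-2, among 5 genes higher and 9 lower in MIA PaCa-2, where 39.2% of all probes were called higher and 31.0% lower.

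The genes that sense double-stranded RNA were tested for 22 members of the list (MIA PaCa-2) and 23 (Capan-1). Limma called 1 gene higher and 1 lower in MIA PaCa-2, against 1.92% of all tested probes. At an unadjusted p under 0.05, 3 were higher there (10.6% of all probes) and 7 lower (9.87%). In MIA PaCa-2, DICER1, which cuts such RNA, was higher by 0.70 (limma adjusted p = 0.042), and TLR3, the endosomal sensor, was lower by a log2 difference of -0.80 (limma adjusted p = 0.041). Neither was called when any of the 8 arrays was left out (limma adjusted p between 0.079 and 0.17), and TLR3, a dim probe, read -0.054 with normexp. DICER1 stood at -0.45 and -0.49 on the parental and at 0.29 and 0.41 on the siRNA arrays of Capan-1, a difference of 0.82 with a limma adjusted p of 0.14. In limma, 0 of 23 genes passed in Capan-1, and at an unadjusted p under 0.05 there were 5 higher (5.85% of all probes) and 1 lower (6.60%). The sensor DDX58 differed by 0.42 and 0.49 there at its probes, and IFIH1, the sensor of longer duplexes, by 0.30, with limma adjusted p-values between 0.22 and 0.29, and both genes' arrays did not overlap. MIA PaCa-2 gave 0.072 and 0.031 for DDX58 and, for IFIH1, -0.35 (limma adjusted p = 0.090). EIF2AK2, the kinase PKR, differed by 0.17 and 0.11 in Capan-1, against 0.27 and 0.25 in MIA PaCa-2, without passing. Between the parental lines DDX58 was higher in MIA PaCa-2 and IFIH1 in Capan-1, by 0.86 at the probe A_33_P3418170 and by -0.97.

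Genes that act with or after 2-5A formed a list of 6 tested genes. Over all tested probes, limma called 1.92% in MIA PaCa-2. ABCE1, an ATP-binding protein of ribosome recycling, was lower in MIA PaCa-2 by a log2 difference of -0.52 (limma adjusted p = 0.048) at one of its probes, and its other probe gave -0.34 (limma adjusted p = 0.25). ABCE1 was the 1 gene called of 6 in MIA PaCa-2, and the call was lost without any of the 8 arrays (limma adjusted p between 0.093 and 0.17). In Capan-1 limma called 0 of 6, and at an unadjusted p under 0.05 there were 1 higher and 1 lower. MIA PaCa-2 had 0 higher and 2 lower at that level.

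The other interferon-stimulated genes formed a list of 61 genes with a probe. In Capan-1, 59 were tested and 0 passed in limma, while at an unadjusted p under 0.05 there were 15 higher (5.85% of all probes) and 4 lower (6.60%). The difference was above 0 for 38 genes, and the median was 0.12. The siRNA arrays exceeded the parental arrays without overlap for 28 genes (27.1% of all probes) and were below them for 12 (27.1%). RSAD2, which encodes the antiviral enzyme viperin, stood at -3.58 and -3.61 on the parental and at -1.83 and -1.89 on the siRNA arrays, a difference of 1.74 (limma adjusted p = 0.12). ISG15, a ubiquitin-like modifier, differed by 0.77 (limma adjusted p = 0.14). RSAD2 and ISG15 were picked for their values here, and both were on the same side as IFIT1.

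In MIA PaCa-2, 54 genes of that list were tested and the median was -0.049. IFI27 was higher by 2.09 (limma adjusted p = 0.0056) and IFI6 by 0.82 (limma adjusted p = 0.040), related small membrane proteins induced by interferon, and TNFSF10, the death ligand TRAIL, was lower by a difference of -1.0 (limma adjusted p = 0.020). These were 2 genes higher and 1 lower of 54, where 1.92% of all tested probes were called. At an unadjusted p under 0.05, 9 genes were higher (10.6% of all probes) and 9 lower (9.87%), and 1 had probes both ways. IFI27 was still called without each of the 8 arrays (limma adjusted p between 0.022 and 0.043), whereas IFI6 and TNFSF10 were not called without any of them (0.050 to 0.12). ISG15 differed by -0.32 and RSAD2 by 0.061, so this list had no single direction in this line either. Between the parental lines 14 genes of the list were higher in MIA PaCa-2 and 37 were higher in Capan-1 (39.2% and 31.0% of all probes). The median was -0.77, whereas the IFIT probes were all higher in MIA PaCa-2. Some of the 37 entered the test only through Capan-1, where they were above background. MX1, the dynamin-like antiviral protein, differed by -3.89 and IFI27 by -5.0, both higher in Capan-1 like OAS1 and OAS3.

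Chemokines and early genes induced through IRF3 and NF-kB were tested for 20 genes in Capan-1, where 18 differed by more than 0, with a median of 0.29. CCL3, a chemokine for monocytes and T cells, was higher by 2.21 (SE 0.12, limma adjusted p = 0.041). It was the 1 gene called, with 0 lower, where 0.00428% of all tested probes were called. The call was kept without the siRNA array 2 of Capan-1 (limma adjusted p = 0.034) and lost without each other array (up to 0.21). At an unadjusted p under 0.05, 12 were higher (5.85% of all probes) and 0 lower (6.60%). The interferon-induced chemokine CXCL10 differed by 2.40 and 2.26 at its probes (limma adjusted p = 0.12 for both), and CXCL11 by 1.70 (limma adjusted p = 0.14), the latter chosen for their values. Both were above background on all 4 Capan-1 arrays and on none of the MIA PaCa-2 arrays. In MIA PaCa-2, 15 were tested with a median of 0.021. At an unadjusted p under 0.05, 1 was higher (10.6% of all probes) and 5 lower (9.87%). Limma called 1 gene higher and 1 lower, against 1.92% of all tested probes. IL8 was higher by 0.77 (limma adjusted p = 0.037) and CXCL3 lower by a difference of -0.62 (limma adjusted p = 0.031). Both calls were lost without any of the 8 arrays (limma adjusted p between 0.069 and 0.15), and CXCL3 read -0.041 with normexp. Between the parental lines 19 of 19 genes tested were higher in Capan-1, a call made for 31.0% of all probes. Some of these, CXCL10 and CXCL11 among them, entered the test only through Capan-1, where they were above background. Their direction followed from that filter, so the count is no test of it.

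**Figure D4:**
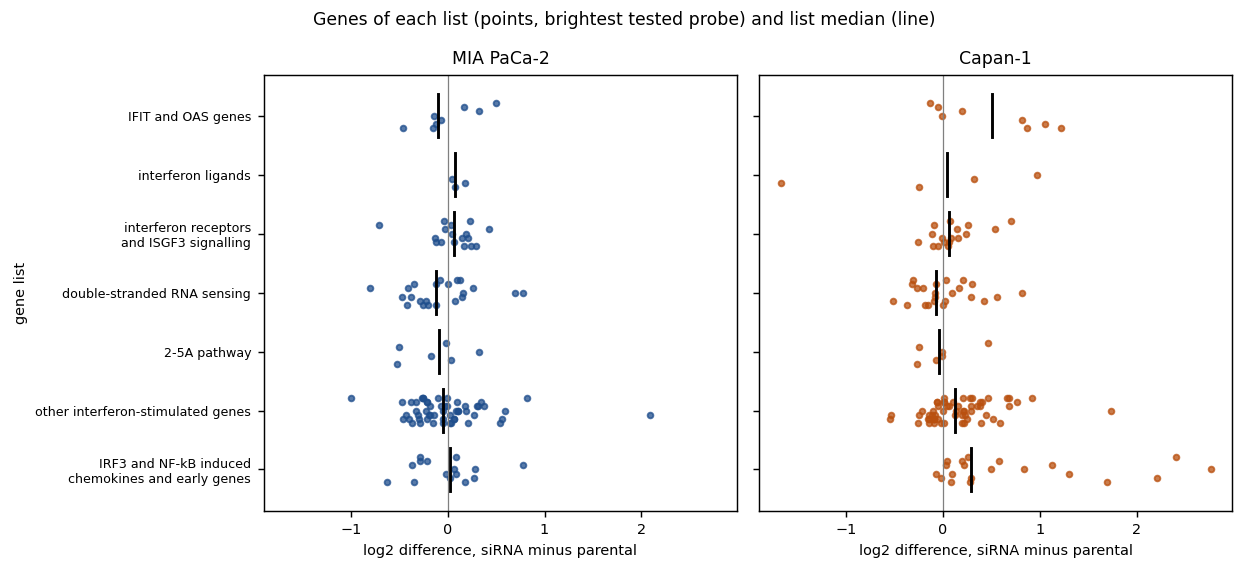
Log2 difference between siRNA and parental cells (horizontal axes) for the genes of each list (vertical axis), in either cell line; each point is a gene at its brightest tested probe and each vertical line is the list median. In Capan-1 the median is 0.12 for the other interferon-stimulated genes and 0.29 for the chemokines and early genes, and in MIA PaCa-2 these are -0.049 and 0.021.

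Position along the chromosome was examined as well, by the coordinates of the files (hg18). The IFIT probes lie between 91056593 and 91169598 on chromosome 10, and 21 probes of 15 other genes lie within 500 kb of them. Of these, 16 were tested in Capan-1, and their differences ran from -0.64 to 1.01, the latter at LOC100133979 with an SE of 0.80. In MIA PaCa-2, CH25H, the interferon-induced cholesterol 25-hydroxylase near the cluster, was higher by 1.56 (SE 0.15, limma adjusted p = 0.021). The call was kept without the siRNA array 2 of MIA PaCa-2 and lost without each other array (limma adjusted p up to 0.10), and the normexp value was 0.77. CH25H differed by 0.52 in Capan-1 (limma adjusted p = 0.32). Around OAS1, OAS2 and OAS3 on chromosome 12, 22 probes of 17 other genes lay within the same distance. MIA PaCa-2 had 17 of them tested, with a range of -0.16 to 0.63, and Capan-1 had 18, from -0.21 to 0.17, so that 0 of the tested probes differed by 1 or more. The others were not well above background on both arrays of either group compared.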

How the data were processed

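The 8 one-color Agilent arrays cover 4 groups of cells, 2 arrays each. The authors deposited the scanner's background-subtracted intensity of every spot (Agilent Feature Extraction 9.5.3, per the labels), with flags for outliers and for signal well above background, and a table of the log2 of that intensity for gene spots. The deposited log2 values matched those of the scanner within 3.45e-08, which shows that the arrays had not been scaled to each other.

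Here, spots flagged as outliers were dropped, replicate spots were averaged on the log2 scale, and each array's 75th percentile, taken over its 34127 gene probes, was subtracted. The fit used limma 3.58.1 (lmFit and eBayes on 4 group means, R 4.3.3, with data.table in version 1.17.8). Tests were two-sided and covered probes that the scanner software marked well above background on both duplicates of 1 or both compared groups, with Benjamini-Hochberg adjustment over all tested probes. The log2 differences, SEs and adjusted p-values printed are from this fit. A gene of a list counted as called when a probe passed. The number of arrays limits the precision. The interval rule used windows of 1000 probes of like intensity and same-numbered arrays, both set here. Lower bounds ("at least") were taken against each array's dimmest probe well above background. The steps were tested on simulated data. Python 3.11.15 (pandas 2.3.3, numpy 2.4.6, matplotlib 3.10.9) made the remaining tables and the figures.

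The member genes and the gene lists were chosen with earlier results of these data known. Named were all members, HOXB7, list genes past the threshold (at most 5 per list and comparison), the interferon ligands, receptors and sensors, the 5 genes most alike in profile, and neighbors within 500 kb that differed by 1 or more on the log2 scale; a few named for their values are marked. The alternatives concerned background correction, scaling, outlier spots, the log2 table, the filter on dim probes, the spread, the arrays fitted, the replicate block and each array left out. Some genes of the lists enter the counts and medians but are not reported here by name.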

Additional observations from a re-analysis of the deposited data

Results flagged for a closer look

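In 4 member probes every siRNA array lay on one side of both parental arrays in MIA PaCa-2 and on the other side in Capan-1. Arrays without overlap are common with 2 arrays a group. Of all probes, 28.0% lay above and 23.4% below in MIA PaCa-2, and 27.1% each way in Capan-1. The share of all probes on opposite sides in the lines was not counted. Because the genes were chosen on this contrast, the difference is given as a description. The limma counts in the text are no independent test of it. The difference between lines (MIA PaCa-2 minus Capan-1) was -1.37 for IFIT1, -0.882 for IFIT3, -1.33 for OASL and 0.632 for OAS3 at A_24_P335305. In MIA PaCa-2 itself the siRNA difference of IFIT3 was -0.070, smaller than its SE of 0.080, and that of OASL was -0.46. In Capan-1 the siRNA difference of OAS3 at A_24_P335305 was -0.14 (SE 0.10).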

How the results depend on the processing

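Among 12 member probes (11 in MIA PaCa-2), 0 passed in either siRNA comparison or in the difference between lines. Allowing the spread to follow intensity gave 5 in Capan-1, 2 in MIA PaCa-2 and 3 for the difference, normexp gave 5, 2 and 4, and testing only probes above background on all 8 arrays gave 1, 2 and 2. Quantile normalization gave 1 and the interval of the parental arrays 5 in Capan-1. Leaving out each array gave 0 in all of these comparisons. The parental comparison kept 10 to 12 of 12 probes over its alternatives, and 10 with the replicate block, with weaker values mainly for OAS2 at A_33_P3225512 and OAS3 at A_33_P3402489. The replicate block gave 0 in the siRNA comparisons and the difference. Same-numbered arrays deviated together with r = 0.023 (MIA PaCa-2) and r = 0.038 (Capan-1), so the numbers were not taken to pair the arrays. Of the genes in the pathway lists, limma called 8 in MIA PaCa-2, 1 in Capan-1 and 0 for the difference. The shares of all tested probes were 1.92%, 0.00428% and 0.00783%. The spread following intensity gave 19, 8 and 7, normexp 12, 11 and 9, quantile normalization 9, 5 and 2, probes above background on all arrays 15, 2 and 2, no filter 1, 0 and 0, no scaling and spike-in scaling each 1, 2 and 0, and the replicate block, like each line fitted alone, 0 for the siRNA comparisons. Leaving out an array gave 1 to 2, 0 to 1 and 0 to 1. Fewer genes are tested or fewer arrays enter under some of these settings, and no other cause was tested. Over the alternatives the Capan-1 differences stayed above 0 for IFIT1 (0.94 to 1.27), IFIT2 (0.77 to 1.13 and 0.58 to 1.03), IFIT3 (0.53 to 0.86) and OASL (0.59 to 0.91), and the MIA PaCa-2 differences kept their sign for OASL (-0.68 to -0.42) and OAS3 (0.28 to 0.57). Scaling to the spike-in probes moved the median of all probes to -0.28 in Capan-1 and no scaling moved it to -0.19 in MIA PaCa-2, and OAS1 in Capan-1 then read -0.077 under the former. The small differences of IFIT2 and OAS2 (MIA PaCa-2) and of IFIT5 and OAS2 (Capan-1) turned sign under some alternatives.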
